A study of Homo sapiens with 2 samples.

Results

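The NRF2 antioxidant and iron storage genes are represented here by 9 genes, NFE2L2, HMOX1, NQO1, GCLC, GCLM, TXNRD1, SRXN1, FTH1 and FTL. They were chosen by name, and every probe that the deposited annotation assigns to one of these symbols was taken, which gave 13 of the 58199 probes on the array and 9 of its 34757 gene symbols. FTH1 and FTL had 3 probes each and the other genes had 1 each. The measurement comes from A375, a human melanoma cell line, grown in DMEM with glutamine and foetal bovine serum according to the labels. The paper on these data names RPMI medium instead. An siRNA (small interfering RNA) directs the breakdown of mRNAs that pair with it, THOC2 is a subunit of the THO complex that acts in mRNA export, and NC is a control siRNA. The paper lists several THOC2 siRNAs and does not say which was used for the array. RNA of 1 culture with THOC2 siRNA and of 1 culture with NC was taken after 48 h and hybridized to 1 Agilent array each, so there was no replicate, no test between the conditions was possible, and every value below describes these 2 arrays. The source field of each sample names the other condition than its title and description do, and the title and description were followed.

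NRF2, the protein of NFE2L2, is a transcription factor that is kept low by KEAP1, which directs it to degradation, and that accumulates when electrophiles or oxidants modify KEAP1. It binds antioxidant response elements near genes for glutathione synthesis, thiol reduction, quinone reduction, heme breakdown and iron storage. The ferritin genes FTH1 and FTL are also held back at translation by iron regulatory proteins when iron is scarce, a layer that mRNA levels do not show.

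Signals are the scanner software's processed signal of a probe, in scanner units, and are given before scaling. For the log2 fold change, the log2 signal of each array was reduced by that array's 75th percentile (6.62 for NC and 6.31 for THOC2 siRNA), so a probe with a slightly lower signal on the THOC2 siRNA array can have a log2 fold change above 0. Positive values mean higher with THOC2 siRNA. Apart from the sums over marker genes below, signals of different probes were not combined or compared, since probes differ in how strongly they bind. A probe was compared where the software marked it as well above background on at least 1 array, as was so for 25345 probes, and 22207 of them were marked on both arrays. The targeted gene, THOC2, has a pair of probes, each lower with its siRNA. Their signals went from 136 to 40.9 at X:122734486-122734545 (log2 fold change -1.42) and from 67.3 to 35.1 at X:122747960-122748019 (log2 fold change -0.63), in hg19 as in the deposited annotation. The melanocyte lineage markers were partly absent. Of 7 such genes, 4 were detected with NC and 5 with THOC2 siRNA, and PMEL and TYR were detected with neither, while AXL and NGFR, genes of dedifferentiated melanoma, were detected with both and SOX9 of the same list with neither. The summed signal before scaling went from 6834 to 5674 for the melanocyte list and from 23760 to 16608 for the dedifferentiated list, which after scaling are log2 differences of 0.041 and -0.21. These sums rest mostly on SOX10 (6196 and 5196) and on AXL (23189 and 16034). Genes within a list differed in sign, with log2 fold changes of 0.75 for DCT and -0.66 for S100B, and of 0.32 for NGFR and -0.22 for AXL. Markers of leukocytes (65.2 and 79.7), endothelium (43.4 and 40.0) and epithelium (102 and 138, EPCAM and CDH1 not detected) summed to low signals on both arrays. After scaling these are log2 differences of 0.60, 0.19 and 0.74, in that order. PTPRC, CD3E, PECAM1 and KRT14 each had a probe detected on both arrays, and CDH5 was detected with NC only. The part of these markers in any value below was not tested. In such bulk RNA, fewer cells of a kind and less RNA per cell cannot be told apart.

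All 13 member probes were detected with NC and 12 with THOC2 siRNA, the exception being NFE2L2. None of the 12 probes measured on both arrays was past 2-fold in either direction, where the share of all probes so measured was 0.365% for lower and 0.829% for higher. Counted as genes, 0 of 8 were past 2-fold, beside 0.352% of all genes for lower and 0.837% for higher. The log2 fold changes of the 12 probes ran from -0.32 for GCLC to 0.54 for HMOX1. Of these probes 9 were above 0, and their median was 0.097, beside 0.043 for all probes measured on both arrays. The 3 probes of FTH1 and the 3 of FTL were all above 0, so these genes weigh most in that count. Counted as genes, 3 of 8 (37.5%) were below 0, beside 43.2% of all genes measured on both arrays. The 8 genes measured on both arrays had a median of 0.055, beside 0.040 for all 15647 genes measured on both arrays, whose values lay between -0.45 and 0.51 from the 5th to the 95th percentile. Among the members, HMOX1 alone lay outside that range. With NFE2L2 as measured, the median over the 9 genes was 0.041, beside 0.023 for the 17514 genes compared. The scanner software's own error of the log2 fold change was 0.20 to 0.21 for these 12 probes, and the values of 3 were larger than it, those of HMOX1, GCLC and one FTH1 probe. The SD of the log2 fold change between repeated spots of a probe on the same arrays had a median of 0.052 at this brightness (244 probes), and 9 of the 12 values exceeded it. Neither error covers the differences between cultures, transfections or labelling reactions.

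**Figure D1:**
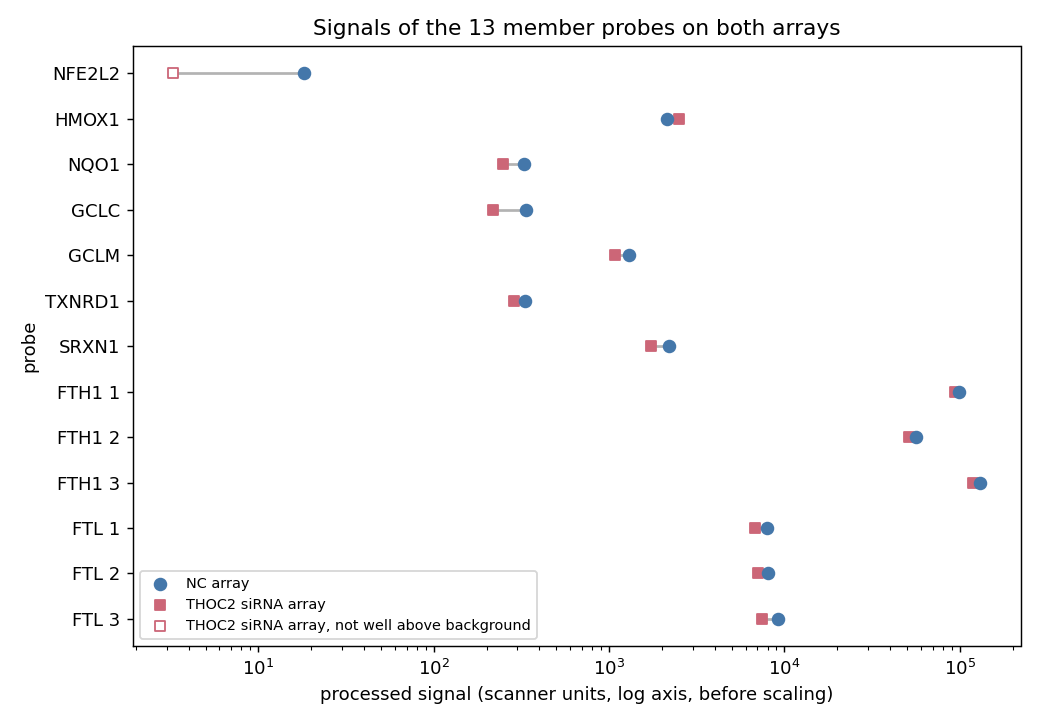
Processed signal (scanner units, log axis, before scaling) of the 13 probes on the NC array (circles) and the THOC2 siRNA array (squares), the open square marking a signal not well above background. Before scaling, 12 of the probes had the lower signal on the THOC2 siRNA array, and HMOX1 went from 2149 to 2514.

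**Figure D2:**
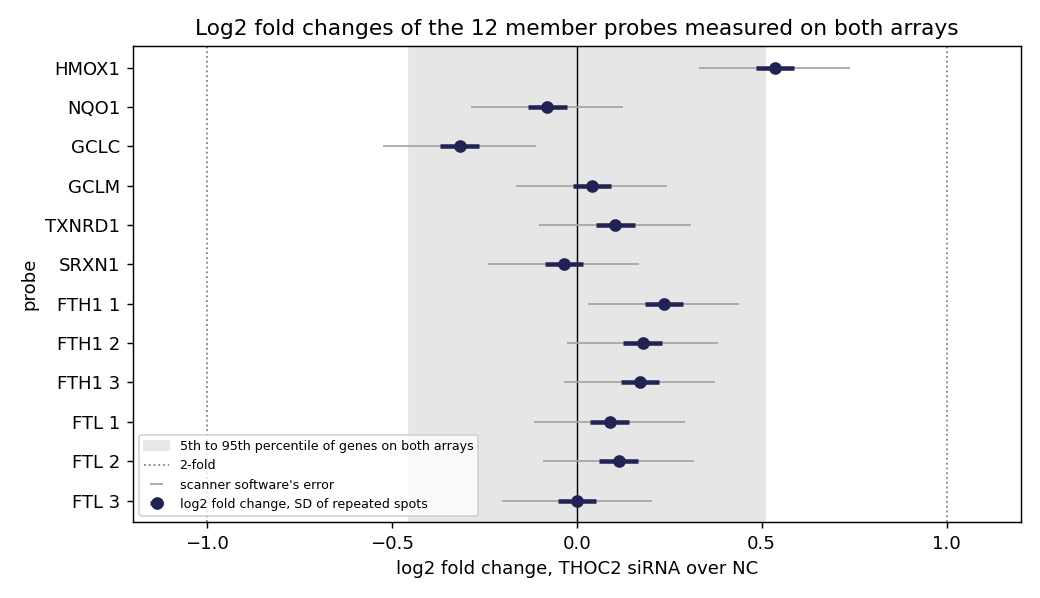
Log2 fold change of the 12 probes measured on both arrays, with the median SD of repeated spots (thick bars) and the scanner software's error (thin bars), and in grey the range from the 5th to the 95th percentile of all genes measured on both arrays. HMOX1 (0.54) lies outside the grey range, and no probe reaches the dotted lines at 2-fold.

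NFE2L2, which encodes NRF2 itself, could not be followed. Its probe lies on the minus strand at chr2:178095693-178095752, and is shown because its base composition, 25% G and C, sets it apart from the other members, whose probes hold 35% to 55%.

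NFE2L2: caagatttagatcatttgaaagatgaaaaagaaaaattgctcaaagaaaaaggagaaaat

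The NC signal of this probe was 18.2, near the dimmest signal that passed the background mark there (14.7). With THOC2 siRNA the signal was not well above background, and the deposited 3.27 is a value that the software put in place of the measured one. After scaling, the log2 difference of these signals was -2.17, past 2-fold. This was the 1 member probe lower by 2-fold or more among the 13. Of the compared probes, 3.33% were lower and 2.93% higher by as much (3.34% and 2.96% of genes). No fold is given for it, since the NC value was 0.926 times the detection limit of the THOC2 siRNA array after scaling. The unprocessed mean pixel signals were 58.8 and 40.7, over local backgrounds of 25 and 23, and a background model that keeps dim signals (normexp) gave a log2 fold change of -0.32. That model adds an offset of 50 to every signal, which shrinks the fold changes of dim probes. The THOC2 probes, at -1.42 and -0.63 as reported, were at -0.81 and -0.28 with it. Probes seen on the NC array only numbered 2409, of which 763 (31.7%) were lower by 2-fold or more as deposited and 1075 (44.6%) were without a fold for the same reason. Of the 504 probes with at most 25% G and C, 25% were well above background on at least 1 array, against 43.5% of all probes.

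HMOX1, the inducible heme oxygenase that breaks heme down to biliverdin, carbon monoxide and iron, was the highest of the members. Its probe at chr22:35790122-35790181 is printed 10 times on the array, scattered over it, which allows the size of the difference to be seen apart from position. The first 30 of its 60 bases follow.

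HMOX1: tggggagggaggtgtttaacggcactgtgg

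On the NC array the 10 spots ran from 2093 to 2199 with a median of 2152 (CV 1.54%), and on the THOC2 siRNA array from 2351 to 2611 with a median of 2529 (CV 3.34%). Every spot of the THOC2 siRNA array was brighter than every spot of the NC array, before any scaling. The log2 fold change was 0.54, a 1.45-fold difference, with single spots between 0.44 and 0.62 (SD 0.055, SE 0.017 over 10 spots). These spots share the same 2 RNA samples, so their error is that of the array and not of the condition. Of the 1000 probes nearest in signal, 0.9% were higher by more. Among the 244 probes printed repeatedly with a log2 signal over 8, 5 were higher by more and the range from the 5th to the 95th percentile was -0.21 to 0.36. Of all genes measured on both arrays, 4.47% were higher than HMOX1. The blocks of the array that hold its spots had median log2 fold changes averaging 0.033. Over the 11 other ways of processing the value stayed between 0.45 and 0.54. Among them the detection filters, the limit for dim signals and the brightest probe cannot change a gene with 1 probe seen on both arrays. With no replicate the spread of HMOX1 between cultures is unknown.

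**Figure D3:**
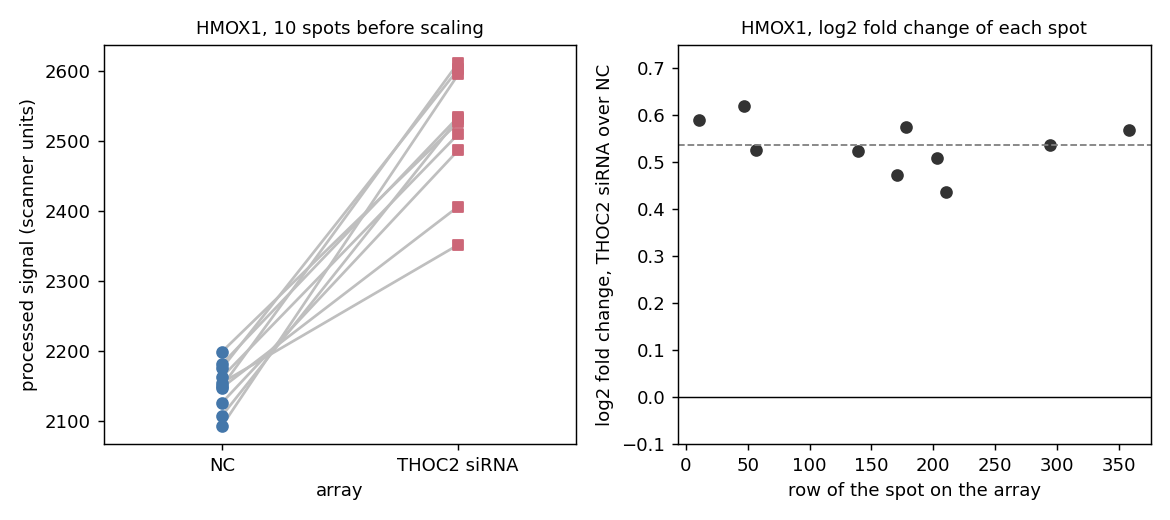
Left, processed signal of the 10 HMOX1 spots on each array before scaling, with lines joining the spot at the same position. Right, log2 fold change of each spot against its row on the array, with the mean of 0.54 dashed. All 10 spots lie between 0.44 and 0.62 wherever they sit on the array.

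NQO1, the quinone reductase often used as a readout of NRF2, was close to 0 and not near HMOX1. The NQO1 signal was 326 with NC and 249 with THOC2 siRNA at chr16:69744274-69744333 on the minus strand, a log2 fold change of -0.08. That value lay within the scanner software's error of 0.21. It was below 0 under all 11 other ways of processing, some of which cannot change it. The block of the array that holds the NQO1 spot had a median of 0.19, with 14.4% of its probes higher by 2-fold or more. Relative to its block the value was -0.27, larger in size than that error. The part of position in it was not tested.

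Glutathione synthesis starts with glutamate-cysteine ligase, of which GCLC is the catalytic and GCLM the modifier subunit. GCLC was the lowest of the members measured on both arrays and GCLM was close to 0. The GCLC signal was 336 with NC and 218 with THOC2 siRNA at chr6:53362197-53362256 on the minus strand, which gave a log2 fold change of -0.32, or 0.803 times the NC level. This was larger in size than the scanner software's error of 0.21, and it lay between -0.38 and -0.24 in the alternatives. It was not unusual among other features. Of the 1000 probes nearest in signal 9.80% were lower by more, as were 9.90% of all genes measured on both arrays. The SD of the log2 fold change over the 9586 probes whose log2 signal exceeded 8 on each array was 0.22. The block of the array that holds the GCLC spot had a median of 0.055, and relative to it the value was -0.37. No other probe on the array shares 15 bases or more with the GCLC probe, whose first 30 bases follow.

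GCLC: agaatgcctggttttcgtttgcaatttgct

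The GCLM signal was 1295 with NC and 1075 with THOC2 siRNA at chr1:94352810-94352869 on the minus strand, a log2 fold change of 0.041. In the 11 alternatives it ran from -0.018 to 0.041, with 6 of them below 0, so that GCLM has no settled sign. Of the alternatives able to change it, only scaling by the median left it above 0. The GCLM probe shares 15 bases or more with 10 other probes on the array, and how much of its signal comes from other transcripts was not tested.

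The genes for thiol reduction were near 0. TXNRD1, the cytosolic thioredoxin reductase, had signals of 333 with NC and 289 with THOC2 siRNA at chr12:104732949-104733008, a log2 fold change of 0.10. Of the 1000 probes nearest in signal, 36% were higher by more. SRXN1, sulfiredoxin, which reactivates overoxidized peroxiredoxins, had signals of 2207 with NC and 1738 with THOC2 siRNA at chr20:627563-627622 on the minus strand, a log2 fold change of -0.035. Both values lay within the scanner software's error. Under the other ways of processing TXNRD1 ran from 0.041 to 0.10 and SRXN1 from -0.12 to -0.035, so that each kept its sign without reaching that error.

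Ferritin is a shell of heavy chains (FTH1), which oxidize iron for storage, and light chains (FTL), which help to form the iron core. The sequences of an FTH1 and an FTL probe show how far the related genes can be kept apart by 60 bases. Laid over each other they share 52 positions, of which 37 (71.2%) hold the same base, in capitals.

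FTH1: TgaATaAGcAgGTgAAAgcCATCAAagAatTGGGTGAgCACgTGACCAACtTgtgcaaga

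FTL: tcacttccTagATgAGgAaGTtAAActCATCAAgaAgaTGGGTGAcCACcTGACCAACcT

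The FTH1 probe shown, at chr11:61732276-61732335 on the minus strand, had signals of 98280 with NC and 93361 with THOC2 siRNA, a log2 fold change of 0.24. The probe at chr11:61732038-61732096 had signals of 55959 and 51104, a log2 fold change of 0.18. The probe at chr11:61732071-61732130 had signals of 130506 and 118550, a log2 fold change of 0.17. All 3 probes of FTH1 were thus slightly higher after scaling, with a mean of 0.20 (SD 0.035 over 3 probes of one gene), although each signal was lower before it. The last 2 of these probes share 21 bases and are not separate measurements of the transcript. FTH1 was at 0.055 to 0.075 with quantile normalization, lowess centring or normexp and at 0.21 relative to the blocks of its spots. Of all genes measured on both arrays 25.3% were higher.

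The FTL probe shown, at chr19:49469860-49469919, had signals of 7904 with NC and 6786 with THOC2 siRNA, a log2 fold change of 0.089. The probe at chr19:49468731-49468790 had signals of 8100 and 7071 (0.11), and that at chr19:49469029-49469088 had signals of 9199 and 7427 (0.00097). FTL averaged 0.068 (SD 0.059 over 3 probes), and 4 of 11 alternatives put it below 0. The FTL probe with 0.11 sits in a block with a median of 0.22, where 17.5% of the probes were higher by 2-fold or more. Of the copies of the ferritin genes on the array, FTHL17 had signals of 21631 and 19697 and a log2 fold change of 0.17, and its probe shares no run of 15 bases with the FTH1 probes. Shorter or imperfect matches were not searched, and how much of the FTHL17 signal comes from FTH1 transcripts was not tested. The probes of FTH1P18 and FTLP10 were well above background on neither array. An unnamed probe that shares 16 and 17 bases with a pair of the FTH1 probes had signals of 30262 and 34748 and a log2 fold change of 0.51.

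**Figure D4:**
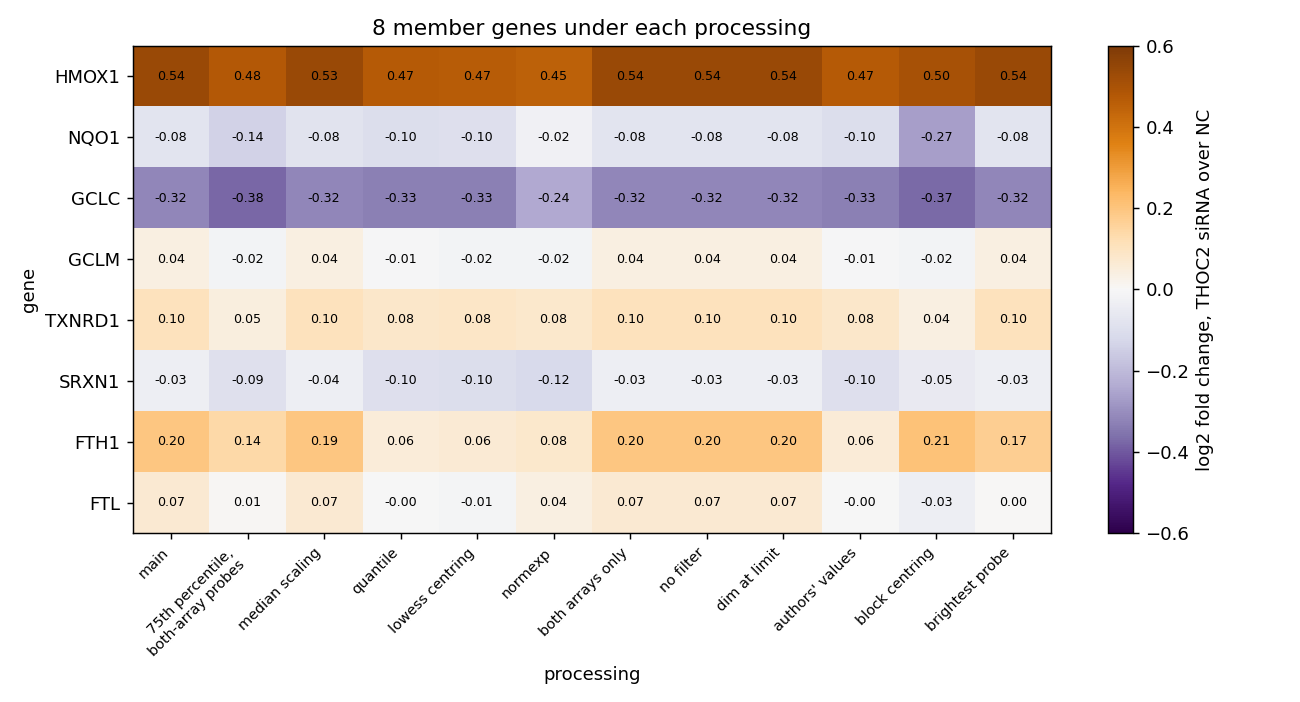
Log2 fold change (colour and number) of the 8 member genes measured on both arrays, in rows, under the reported processing and each of 11 alternatives, in columns. HMOX1 stays between 0.45 and 0.54 and GCLC between -0.38 and -0.24, whereas GCLM and FTL change sign.

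The promoters were searched for the core of the antioxidant response element, TGACNNNGC, on both strands, in the RefSeq window from 250 bases before to 50 after the start (GRCh38.p14). The table gave windows for 7 of the 9 genes (NFE2L2, NQO1, GCLC, GCLM, TXNRD1, SRXN1 and FTL), 9 windows in all. GCLM and TXNRD1 held the core, in 3 of the 9 windows, beside 13.3% of all 35116 promoter windows. The matches are shown in capitals with 8 bases on each side, and their offsets from the start are -34 for GCLM, -99 and -8 in one TXNRD1 window and -102 in the other.

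GCLM at -34: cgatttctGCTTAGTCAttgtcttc

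TXNRD1 at -99: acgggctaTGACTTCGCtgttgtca

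TXNRD1 at -8: gtccttcgGCTCCGTCAgttcccac

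TXNRD1 at -102: ggatttctGCTTTGTCAttctgact

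GCLM and TXNRD1, which hold the core, had log2 fold changes of 0.041 and 0.10. Of the genes with a window but no match, FTL had 0.068, SRXN1 -0.035, NQO1 -0.079 and GCLC -0.32, and NFE2L2 was without a fold. HMOX1 and FTH1 had no window. Elements outside the windows were not searched, and whether the core goes with the change was not tested.

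Around the 9 genes, 5 further lists of the pathway gave the wider picture, and a list is described here by its genes measured on both arrays. Of all genes so measured, 43.2% were below 0. The regulators of NRF2 (13 genes) had a median of 0.065, with 5 below 0. KEAP1, the adaptor that leads NRF2 to degradation, had signals of 1983 and 1679 and a log2 fold change of 0.070. BTRC, a substrate adaptor of another ubiquitin ligase for NRF2, was the lowest, with signals of 177 and 105 (-0.44), followed by NFE2L3, a related transcription factor, with 1361 and 925 (-0.25). GSK3B, the kinase that marks NRF2 for BTRC, was the highest with signals of 630 and 614 (0.27), followed by SQSTM1, which sequesters KEAP1, with 19957 and 18960 (0.24). No regulator was past 2-fold.

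The other targets of NRF2 (23 genes) were spread around 0 with a median of -0.030 and 12 below 0, and 0 was past 2-fold. ABCC3, an exporter of conjugates, had signals of 799 and 1024 at one probe (0.67) and 641 and 761 at another (0.56). TKT, transketolase, had signals of 38823 and 46482 (0.57). Both exceeded HMOX1. UGDH, which makes UDP-glucuronate, was the lowest with signals of 240 and 150 (-0.37), and OSGIN1 had 97.5 and 69.6 (-0.18). AKR1C1, an aldo-keto reductase, had signals of 35.6 and 28.1 (-0.031) at the probe measured on both arrays. Its other compared probe was detected with NC only, at 16 against 3.26, and is without a fold for the same reason as NFE2L2, so the gene's mean of -1.01 rests on that probe. Like the members, these targets held values of both signs.

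The peroxide and glutathione enzymes (25 genes) had a median of 0.12 with 8 below 0, and 0 was past 2-fold. PRDX4, the peroxiredoxin of the endoplasmic reticulum, was the highest, with signals of 10258 and 11913 at the probe measured on both arrays (0.53). SOD2, the mitochondrial superoxide dismutase, had signals of 3815 and 4238 (0.46). At the other end were the secreted enzymes GPX3, with signals of 45.3 and 22 (-0.73), and SOD3, with 379 and 237 (-0.37). GPX3 was dim. The median SD of repeated spots at that brightness was 0.17, from only 5 probes, and the scanner software's error for GPX3 was 0.31. With normexp, which shrinks the fold changes of dim probes, GPX3 was -0.25.

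The genes of iron handling (15 genes) had the highest median of these lists, 0.15, with 3 below 0. HAMP, which encodes hepcidin, the hormone that blocks iron export, was the only one past 2-fold on both arrays, from 26.7 to 57.4 (1.41). With normexp, which shrinks the fold changes of dim probes, HAMP was 0.61, below 2-fold. Its block is that of NQO1, where 14.4% of the probes were higher by 2-fold or more. The next highest, SLC39A14, an iron and zinc importer, averaged 0.33 over its probes, whose signals went from 4611 to 4256 (0.19) and from 24.9 to 27.7 (0.46). TFRC, the transferrin receptor, had signals of 3282 and 3051 (0.20). IREB2, an iron regulatory protein, was the lowest with signals of 704 and 482 (-0.24). SLC25A37, which brings iron into mitochondria, averaged -0.035 over a pair of probes of opposite sign (-0.26 and 0.19). HEPH, a ferroxidase, was detected with THOC2 siRNA only, where its signal of 25.2 was 2.13 times the detection limit of the NC array after scaling. That ratio rests on 1 dim spot and is not a minimum for the fold. The scanner software's error of its log2 fold change was 0.49. The unprocessed mean pixel signals were 51.4 with NC and 64.9 with THOC2 siRNA, over local backgrounds of 24 and 23. The log2 fold change of HEPH was 0.32 with normexp, which shrinks the fold changes of dim probes and so cannot be set against that ratio. SLC40A1, the iron exporter, was well above background on neither array.

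Genes of heme synthesis and export (11 genes) kept within a narrow range, with a median of 0.068 and 2 below 0. FLVCR1, a heme exporter, had signals of 301 and 275 (0.18) and UROD, of the heme pathway, had 6450 and 5809 (0.16). FECH, which inserts iron into heme, was the lowest with signals of 152 and 108 (-0.19), before ALAD with 81.2 and 64.8 (-0.015). HMOX2, the constitutive heme oxygenase, had signals of 6860 and 5727 and a log2 fold change of 0.049, against 0.54 for HMOX1 on the same arrays.

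**Figure D5:**
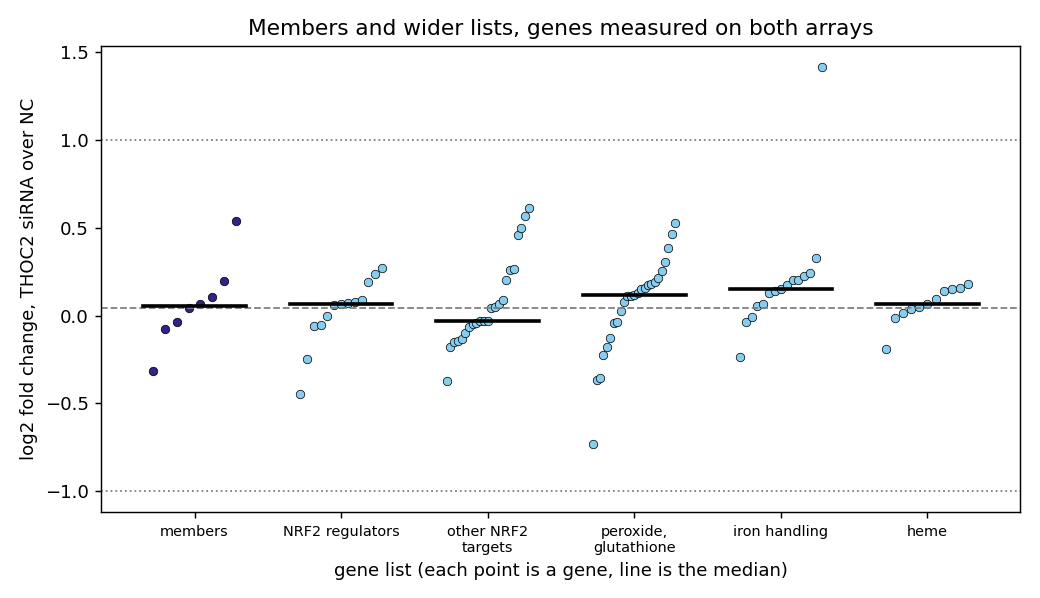
Log2 fold change of each gene measured on both arrays, for the 8 members and the 5 wider lists, with the median of each list as a thick line, the median of all genes (0.040) dashed and 2-fold dotted. HAMP (1.41, and 0.61 with normexp) is the only gene shown past 2-fold, and HMOX1 (0.54) is the highest of the members.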

How the data were processed

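The authors deposited, for each array, the intensity of every spot as written by Agilent Feature Extraction 10.7.1.1 (per the file headers without local background subtraction but with a spatial trend subtracted, which weighs most on dim probes), and a table of log2 values whose sorted columns differ by at most 0.00079, as quantile normalization gives. A deposited table of the authors' own comparison (fold changes per probe) was not used. Positions are those of the deposited annotation (hg19), and exons and UTRs were not determined here.

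Control and outlier spots (230 and 253) were left out, log2 processed signals were reduced by the 75th percentile, spots of a probe and compared probes of a gene were averaged, and a call was 2-fold or more. No p-values were computed, and the number of arrays limits the precision. The alternatives were other scalings (75th percentile or median of probes on both arrays, quantile), lowess (span 0.3), normexp (offset 50), detection filters, dim signals at their limit, the authors' values, centring in 128 blocks of spots and the brightest probe. The detection filters, dim signals at their limit and the brightest probe leave unchanged any gene whose only probe was on both arrays. Named genes of the wider lists are the 2 highest and 2 lowest of each whose compared probes were all on both arrays, and any past 2-fold. KEAP1, TFRC, HMOX2, AKR1C1, HEPH and SLC40A1 were named after their values were seen. The members and lists were chosen with earlier results of these data known. Scripts were tested on simulated data. Python 3.11.15 (numpy 2.4.6, pandas 2.3.3, scipy 1.17.1, statsmodels 0.14.6, matplotlib 3.10.9) and R 4.3.3 with limma 3.58.1 were used. The sequence of the GCLM probe is not reported here.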

Additional observations from a re-analysis of the deposited data

How the results depend on the processing

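No paired analysis was possible because each condition had 1 array. The median over the member genes, 0.041 as reported, was -0.018 with the 75th percentile of probes on both arrays, -0.016 with lowess, -0.017 with normexp and -0.033 relative to blocks. It was -0.0089 with quantile normalization and -0.0094 with the authors' values. Thus 6 of 14 alternatives, those chosen after seeing the data included, put it below 0. Over genes compared on at least 1 array the wider lists had, in the order of the text, 0.065, 0.0076, 0.12, 0.16 and 0.068. With the 75th percentile of probes on both arrays the regulators had 0.0064, the other targets -0.051, the peroxide and glutathione enzymes 0.057, iron handling 0.10 and heme 0.0087, as that scaling put the median of all genes at -0.036 in place of 0.023. With lowess the regulators had 0.0040, the peroxide and glutathione enzymes 0.035 and heme 0.0072. With normexp the regulators had 0.0092, the peroxide and glutathione enzymes 0.047 and iron handling 0.091. Quantile normalization and the authors' values gave 0.0026 and 0.0024 for the regulators and 0.043 and 0.043 for the peroxide and glutathione enzymes. Without a detection filter the median of all genes was 0.24. The count of member probes lower by 2-fold, 1 as reported, was 0 with normexp, with probes on both arrays only and with dim signals at their limit, where NFE2L2 turned to 0.11. Over all genes the lower calls went from 585 to 21, 55 and 142 under these settings. HAMP and HEPH fell below 2-fold with normexp, whose offset shrinks the fold changes of dim probes. The member median, in alternatives chosen after seeing the data, was 0.055 without NFE2L2, 0.041 without NFE2L2 and HMOX1, and 0.068 without NFE2L2 and GCLM. The causes were not tested. Dim signals limit NFE2L2, GPX3, HAMP and HEPH.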
